A study of Mus musculus with 2 samples.

Results

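The proteasome, the protease that degrades ubiquitin-tagged proteins, was followed through its transcripts in microglia sorted from mouse retina at postnatal day 5. Members were the protein-coding genes of the deposited count table whose symbol starts with Psma to Psmg followed by a digit, and 49 of 13549 listed genes met this rule. Of these, 47 encode subunits, activators, an inhibitor or assembly factors of the proteasome. The other two matched by name only: *Psmc3ip* encodes a protein of meiotic recombination, and *Psme3ip1* a protein that binds the activator encoded by *Psme3*. *Psmb11*, the catalytic subunit of the thymus, and the assembly factor *Psmg4* are not analysed here.

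Both groups came from CD11c-Cre-gfp;Rosa-TDTom mice, which carry a Cre and GFP under the control of CD11c (*Itgax*) and a red reporter that stays on once Cre has acted. Cd11c-active cells had both colours (GFP+TdTom+, 4041 cells) and Cd11c-lineage cells the red reporter alone (GFP-TdTom+, 5441 cells). A pool of 8 retinas, with 4 for each sex, was the source of both, and each group gave 1 library. Animals were thus pooled, and no group without the transgenes was compared. The 10 microglial markers checked, such as *Csf1r* and *Cx3cr1*, were present in both libraries, with summed levels of 21563 and 20892 CPM in Cd11c-active and Cd11c-lineage. *Itgax*, whose promoter drove the sort, had 2409 and 1698 reads.

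In the proteasome, stacked rings of alpha and beta subunits form the 20S core, in which *Psmb5*, *Psmb6* and *Psmb7* encode the subunits that cut proteins. The 19S cap binds ubiquitin chains, removes them and unfolds the substrate with a ring of ATPases. In immune cells, and after interferon, *Psmb8*, *Psmb9* and *Psmb10* replace the constitutive catalytic subunits one for one. The resulting immunoproteasome makes peptides suited to MHC class I, and macrophages and microglia are known to express it.

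The libraries held 12943998 reads (Cd11c-active) and 13402625 reads (Cd11c-lineage). CPM are reads relative to library size after TMM scaling, and a log2 ratio is Cd11c-active over Cd11c-lineage with 0.5 reads added. With 1 library per group no difference has a replicate check, no p-value is given, and a ratio compares these libraries and not the conditions. Exact 95% intervals on reads cover counting error only. Genes differed between the libraries by more than that: among 1978 genes with 800 to 1599 reads the variance of the log2 ratio was 80.2 times the counting variance. Intervals called widened are therefore computed on reads divided by 80.2. A gene was past the fold when its log2 ratio was at least 1 in either direction with at least 20 reads over both libraries. The ribosomal RNA *Rn18s* had 1109005 and 380643 reads, and the 8 endothelial markers had summed levels of 646 and 73.7 CPM, 5 of them with 0 reads in Cd11c-lineage. Summed levels were 146 and 269 CPM for the 11 listed retinal neuron markers, with 1 of them at 0 reads in Cd11c-active, and 21.2 and 113 CPM for the 4 listed border macrophage markers, 3 of them at 0 reads there. The 4 listed monocyte and neutrophil markers summed to 2.83 and 17.0 CPM, 3 being at 0 in Cd11c-active and 1 at 0 in the other library. Of 5 dendritic cell markers, *Zbtb46* alone was listed (16.2 and 0 CPM). The part of other cells in the ratios below was not tested. In bulk libraries fewer cells of a type and less RNA per cell cannot be told apart.

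The proteasome took nearly the same share of both libraries. Its 47 genes had 38493 reads in Cd11c-active (0.297% of the library) and 38796 in Cd11c-lineage (0.289%). The log2 ratio of the summed reads was 0.18 (95% counting interval 0.16 to 0.20, widened -0.01 to 0.36). Without *Psmd2*, the member with most reads, it was 0.20, and its widened interval from 0.0042 to 0.40 left out 0 by a small margin. Over all members the sum was 0.0389 with scaling to library totals and 0.0174 after removal of a trend with transcript length and GC content. All 47 genes were detected in Cd11c-active and 44 of them in Cd11c-lineage. The median log2 ratio was 0.18, against 0.03 over all 11644 protein-coding genes tested, with 32 members above 0 and 15 below. With that trend taken out, the median became -0.00415, with 23 above 0 and 24 below, and with scaling to library totals 28 were above 0 and 19 below. Removing the trend turned the sign of 11 members, namely *Psma1*, *Psmb2*, *Psmb4*, *Psmb6*, *Psmb8*, *Psmb10*, *Psmc1*, *Psmc5*, *Psmd8*, *Psmd13* and *Psme4*. Library totals turned that of *Psmb4*, *Psmb8*, *Psmd13* and *Psme3*. Proteasome transcripts were shorter than most, with a median of 1907 bases against 3545 over the tested protein-coding genes.

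Most members differed by less than the fold. Past it were 8 members higher in Cd11c-active and 4 lower, or 25.5% of 47, while 39.9% of the 11644 protein-coding genes and 44.9% of all 13037 tested genes were past it. By direction the background was 21.9% higher and 18.0% lower. With at least 500 reads 3 members were higher and 3 lower of 39, where 9.64% and 7.12% of protein-coding genes were. At a log2 ratio of 0.5 in either direction 14 members were higher and 5 lower, where 32.0% and 28.7% of protein-coding genes were. The higher members were *Psmb3*, *Psmb5*, *Psmb9*, *Psmd5*, *Psmd7*, *Psmf1*, *Psmg2* and *Psmg3*, and the lower ones *Psma8*, *Psmc6*, *Psme2b* and *Psmg1*. In 0 of the 47 members did the widened interval leave out 0. Over the tested protein-coding genes it did so in 2.37% on the higher side and 0.996% on the lower side.

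The share past the fold followed the number of reads. With 20 to 99 reads over both libraries 3 of 3 members were past the fold, where 90.9% of protein-coding genes were, and with 100 to 499 reads 3 of 5 members, where 60.8% were. With 500 to 999 reads 4 of 6 members were past it (background 33.3%), with 1000 to 1999 reads 2 of 20 (17.3%), with 2000 to 3999 reads 0 of 12 (5.88%), and above that the single member was not (1.93%). Of the 33 members with at least 1000 reads, *Psmb5* and *Psmd7* were thus the only ones past the fold. Log2 ratios had a robust SD of 0.41 over the 20 members with 1000 to 1999 reads and 0.69 over all protein-coding genes in that range, and 0.28 and 0.53 from 2000 to 3999 reads. *Psmd7* was the only one of 39 members with at least 500 reads that lay outside the 5th to 95th percentile of the protein-coding genes in its range.

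**Figure D1:**
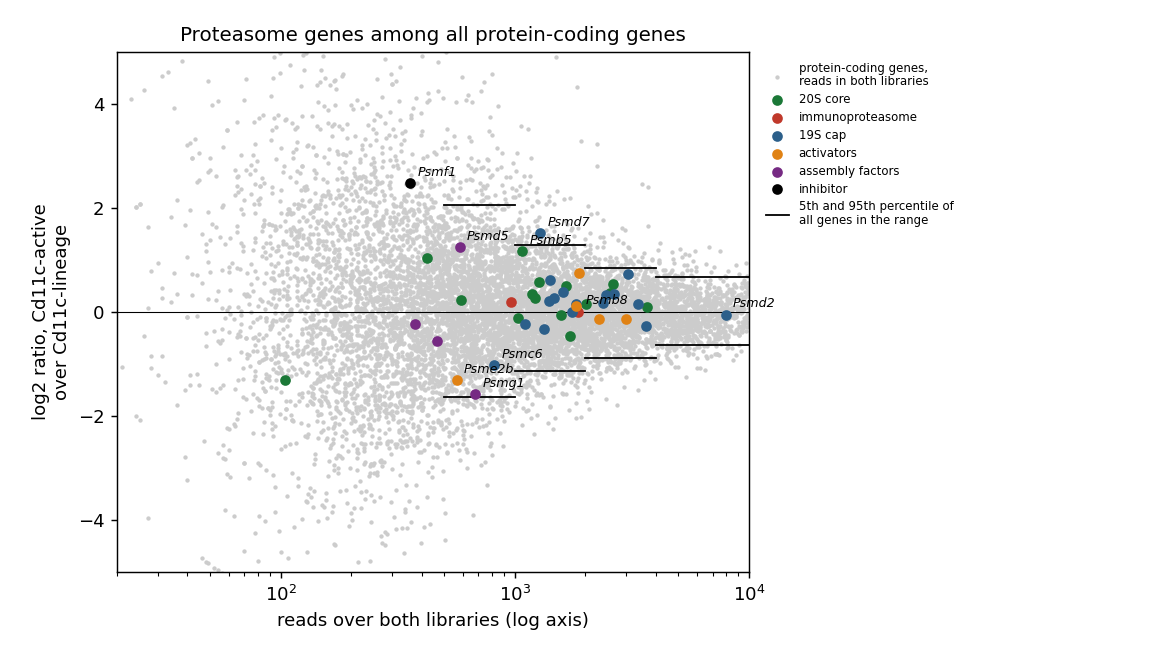
Log2 ratio of Cd11c-active over Cd11c-lineage (y axis, cut at -5 and 5) against reads over both libraries (x axis, log scale) for protein-coding genes with reads in both libraries (grey) and for the proteasome groups (colours, 1 point per gene). Black lines mark the 5th and 95th percentile of all protein-coding genes in a range of reads, and of the members with at least 500 reads only *Psmd7*, at 1.52, lies outside them.

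The 7 standard alpha subunits, which form the outer rings and the gate through which substrates enter, had similar levels in both libraries. *Psma1*, the alpha subunit with most reads, counted 998 in Cd11c-active against 1024 in Cd11c-lineage (80.8 and 72.9 CPM). Its log2 ratio was 0.15 (counting 0.02 to 0.28, widened -1.19 to 1.32). *Psma4*, with 723 and 550 reads, had the highest alpha ratio, 0.58 (widened -1.04 to 2.21). *Psma2*, with 675 and 1053 reads, had the lowest of the 7, -0.45 (widened -1.99 to 0.87). After trend removal it was at -0.39, and *Psma7* was lowest at -0.44. *Psma3*, *Psma5*, *Psma6* and *Psma7* lay between -0.12 and 0.50. *Psma8*, the alpha subunit known from the testis, had 27 and 77 reads, so it was near the bottom of the table in both libraries. Its ratio of -1.31 was past the fold, with a widened interval that had no lower end and reached 5.47. The summed reads of the alpha genes gave 0.10 (widened -0.42 to 0.61), and their median was 0.05, or -0.06 after trend removal.

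The 3 constitutive catalytic subunits had ratios above 0, except that *Psmb6* was at 0 after trend removal. *Psmb5* (ENSMUSG00000022193), whose product cuts after hydrophobic residues, had 715 reads against 362, which is 57.9 and 25.8 CPM. It was past the fold at 1.17 (counting 0.98 to 1.35, widened -0.70 to 2.96), but at 0.66 after trend removal. *Psmb7* (ENSMUSG00000026750), the trypsin-like subunit, showed 1474 and 1148 reads at a log2 ratio of 0.55 (widened -0.54 to 1.67). *Psmb6* (ENSMUSG00000018286), the caspase-like subunit, showed 1354 and 1193 reads at a log2 ratio of 0.37 (widened -0.72 to 1.47), which was -0.00415 after trend removal. The ratios had a median of 0.55. Summed, the 3 genes showed 3543 and 2703 reads at a log2 ratio of 0.58 (counting 0.50 to 0.65, widened -0.12 to 1.25).

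Among the beta subunits without a catalytic site, *Psmb4* had the most reads, 1770 and 1890, and a ratio of 0.09 (widened -0.84 to 0.96), the lowest of the group. Its ratio was -0.04 with library totals and -0.24 after trend removal. *Psmb3* had 272 and 150 reads and the highest, 1.04 (widened -2.35 to 4.35). That value fell under the fold with library totals (0.91) and after trend removal (0.82). *Psmb1* and *Psmb2* were at 0.35 and 0.23, and at 0.21 and -0.17 after trend removal. The whole 20S core of 15 genes had 11668 and 11055 reads, a summed ratio of 0.26 (widened -0.08 to 0.61) and a median of 0.27. The sum was 0.13 with library totals and 0.046 after trend removal, and the median 0.14 and -0.00415.

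Of the immunoproteasome subunits 2 had similar levels in both libraries. *Psmb8* (ENSMUSG00000024338) had 874 and 990 reads, or 70.8 and 70.5 CPM, a log2 ratio of 0.01 (counting -0.13 to 0.14, widened -1.26 to 1.37). *Psmb10* (ENSMUSG00000031897) had 482 and 483 reads, or 39.0 and 34.4 CPM, a ratio of 0.18 (counting -0.002 to 0.37, widened -1.72 to 2.09). After trend removal the ratios were -0.21 for *Psmb8* and -0.22 for *Psmb10*, so both were then below 0. Both genes had reads in the GFP+ and in the GFP- library.

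*Psmb9* (ENSMUSG00000096727) was the scarce member of the group. Its 95 reads were all in Cd11c-active (7.69 CPM), and the 0 reads of Cd11c-lineage allow at most 3, or 0.214 CPM. With 3 reads as the floor per library it was at least 36.0-fold higher in Cd11c-active, and the exact counting interval began at 28.7-fold. The widened interval ran from -5.10 upward without an end, and 75.9% of protein-coding genes with 20 to 99 reads lacked reads in 1 of the libraries. *Psmb9* shares exonic sequence with *Tap1* on the opposite strand in the GENCODE annotation of GRCm38. Whether the authors' counting used strand is not given in the sources used here, so reads of the overlap cannot be assigned. In that annotation 15 of the 49 genes share exonic sequence with another gene, among them *Psmb7* with *Nek6* and *Psme1* with *Emc9* on opposite strands. *Tap1*, a subunit of the peptide transporter of MHC class I, had 1555 and 876 reads, a ratio of 1.01 (widened -0.17 to 2.19).

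Promoter sequences of 2 catalytic pairs are shown with that of *Psme1*, because these genes are known targets of stress or interferon signalling and the pairs had unlike ratios. They come from RefSeq for GRCm38.p6, 5′ to 3′ on the gene's strand, from 250 bases before to 50 bases after the start, whereas the submitters' processing notes name GRCm39. Capitals mark a match on either strand to TGACNNNGC (antioxidant response element core), TTCNNNGAA (gamma-activated site) or the interferon stimulated response element core (GAAA, any 2 bases, GAAA).
Psmb5 (chr14:54617946-54618245, - strand): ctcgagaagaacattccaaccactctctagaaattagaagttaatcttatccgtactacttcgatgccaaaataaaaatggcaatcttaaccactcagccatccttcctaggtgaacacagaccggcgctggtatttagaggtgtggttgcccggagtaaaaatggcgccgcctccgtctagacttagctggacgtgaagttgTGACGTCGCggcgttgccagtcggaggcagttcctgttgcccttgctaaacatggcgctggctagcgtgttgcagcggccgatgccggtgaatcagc
Psmb6 (chr11:70525107-70525406, + strand): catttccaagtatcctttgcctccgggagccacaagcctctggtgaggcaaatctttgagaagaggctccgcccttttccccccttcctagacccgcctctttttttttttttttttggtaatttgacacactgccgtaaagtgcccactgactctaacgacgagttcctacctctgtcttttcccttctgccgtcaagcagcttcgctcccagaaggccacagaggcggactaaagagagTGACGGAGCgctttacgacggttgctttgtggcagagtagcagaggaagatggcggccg
Psmb8 (chr17:34197945-34198244, + strand): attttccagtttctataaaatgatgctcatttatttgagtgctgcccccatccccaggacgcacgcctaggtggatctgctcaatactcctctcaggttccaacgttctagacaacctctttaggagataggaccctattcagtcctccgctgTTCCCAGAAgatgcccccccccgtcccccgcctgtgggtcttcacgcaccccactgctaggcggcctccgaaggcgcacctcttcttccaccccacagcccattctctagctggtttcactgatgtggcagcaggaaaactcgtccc
Psmb9 (chr17:34187281-34187580, - strand): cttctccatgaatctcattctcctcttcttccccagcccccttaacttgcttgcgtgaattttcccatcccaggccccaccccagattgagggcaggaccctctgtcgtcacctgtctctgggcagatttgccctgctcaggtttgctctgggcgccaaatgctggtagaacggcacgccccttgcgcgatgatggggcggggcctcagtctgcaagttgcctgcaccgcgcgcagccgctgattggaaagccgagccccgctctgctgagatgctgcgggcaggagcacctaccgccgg
Psme1 (chr14:55578244-55578543, + strand): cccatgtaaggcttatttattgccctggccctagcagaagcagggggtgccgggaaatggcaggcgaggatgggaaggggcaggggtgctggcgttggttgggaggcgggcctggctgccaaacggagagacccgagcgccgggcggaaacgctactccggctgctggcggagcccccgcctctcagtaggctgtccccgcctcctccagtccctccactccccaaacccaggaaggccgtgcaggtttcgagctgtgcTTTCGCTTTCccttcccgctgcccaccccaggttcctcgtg
*Psmb5* and *Psmb6* each held 1 match to TGACNNNGC, with its first base at -47 and -9, where -1 is the base before the gene start. *Psmb8* held 1 match to TTCNNNGAA with its first base at -97, and *Psme1* 1 match to the interferon element at base 10 after the start. *Psmb9* held none of the 3. Its window overlapped that of *Tap1* by 275 bases, and the starts of these oppositely directed genes lay 226 bases apart. Of the 47 members 39 had a window in the table. TGACNNNGC occurred in 6 of them (15.4%; *Psmb5*, *Psmb6*, *Psmc6*, *Psmd9*, *Psmd12* and *Psme4*), in 12.5% of all 27025 promoters and in 14.9% of the 9561 promoters of protein-coding genes in the count table. TTCNNNGAA occurred in 3 (7.69%; *Psmb8*, *Psmd2* and *Psmg1*) and in 8.47% and 6.73% of those sets. The interferon element occurred in 4 (10.3%; *Psmb3*, *Psmd4*, *Psmd9* and *Psme1*) and in 3.49% and 2.99%. The 6 members with TGACNNNGC included ratios from -1.02 (*Psmc6*) to 1.17 (*Psmb5*), and the widened intervals of both included 0. Whether genes that share these letters share a direction was not tested.

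Each immunoproteasome subunit was then set against the constitutive subunit it replaces. *Psmb8* made up 55.0% of the reads of *Psmb8* and *Psmb5* in Cd11c-active (exact 95% interval 52.5 to 57.5, widened 31.5 to 76.9) and 73.2% in Cd11c-lineage (70.8 to 75.6, widened 44.0 to 89.7). The log2 odds differed by -1.16 (counting -1.39 to -0.93, widened -3.30 to 1.26). The lower share in Cd11c-active went with more *Psmb5* reads there, as *Psmb8* itself had a ratio of 0.01. After trend removal *Psmb8* was at -0.21 and *Psmb5* at 0.66, so both genes then lay off 0. *Psmb10* made up 24.6% and 29.6% of the reads of *Psmb10* and *Psmb7*, a difference in log2 odds of -0.36 (widened -2.58 to 1.86). After trend removal *Psmb10* was at -0.22 and *Psmb7* at 0.60, so the size of the pair differences depended on the trend. *Psmb9* made up 6.56% of the reads of *Psmb9* and *Psmb6* in Cd11c-active (5.34 to 7.96) and 0% in Cd11c-lineage (upper limit 0.309%). Over the 3 pairs together the immunoproteasome share was 29.1% and 35.3%, and the widened interval of the difference, from -1.62 to 0.88 on the log2 scale, included 0. None of these differences therefore exceeded the spread seen between genes of these libraries.

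**Figure D2:**
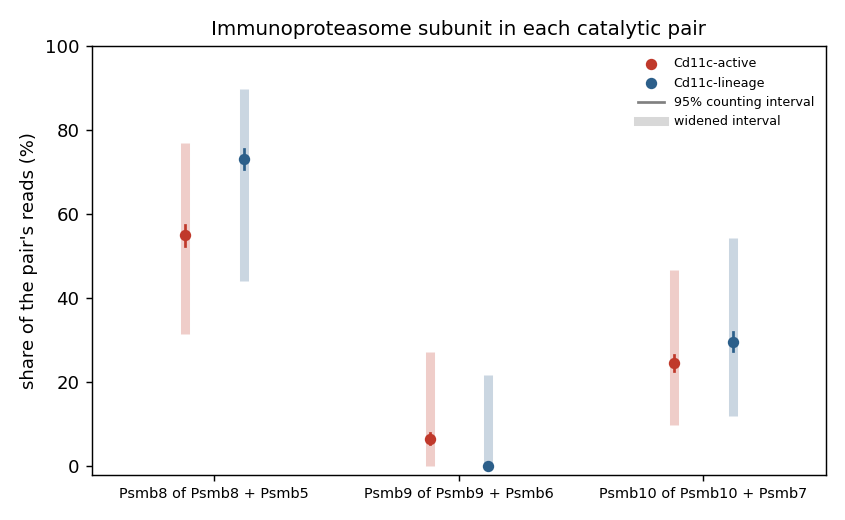
Share of reads (y axis, percent) from the immunoproteasome subunit in each pair with the constitutive subunit it replaces (x axis), with Cd11c-active in red and Cd11c-lineage in blue, 1 library each. Thin lines are exact 95% counting intervals and broad bands the widened intervals, and the bands of both libraries overlap in all 3 pairs.

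Per kilobase of the longest transcript, the scale on which genes can be compared, *Psmb6* stood highest of the catalytic genes in both libraries, at 114 and 87.9 CPM per kb, and *Psmb9* lowest, at 2.67 and 0. *Psmb8* stood at 37.1 and 36.9, *Psmb10* at 29.8 and 26.2, *Psmb7* at 41.9 and 28.7 and *Psmb5* at 64.4 and 28.7. *Psmb8* was thus below *Psmb5* in Cd11c-active and above it in Cd11c-lineage. With the longest coding transcript as the length, *Psmb7* stood at 103 and 70.4, so its place in this order depends on the transcript chosen. Over the 14 genes of the 20S core without *Psma8* the SD of the log2 level per kb was 1.0 in Cd11c-active and 1.02 in Cd11c-lineage. *Psmb4* was the most abundant in both (121 and 114 CPM per kb), but *Psmb6* was above it in Cd11c-active with the longest coding transcript as the length (137 CPM per kb). *Psma3* was the least abundant in Cd11c-active (13.1; with the median transcript *Psma2*, at 25.6) and *Psmb3* in Cd11c-lineage (7.07). Over the 17 genes of the 19S cap the SD was 0.75 and 0.67, with *Psmd2* on top at 98.8 and 102 CPM per kb. With the median transcript as the length the SD was 1.10 and 1.16, and *Psmd2* stood at 450 and 466 CPM per kb. The transcripts of subunits that are built into a single particle in fixed numbers were thus spread over several fold in either library.

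**Figure D3:**
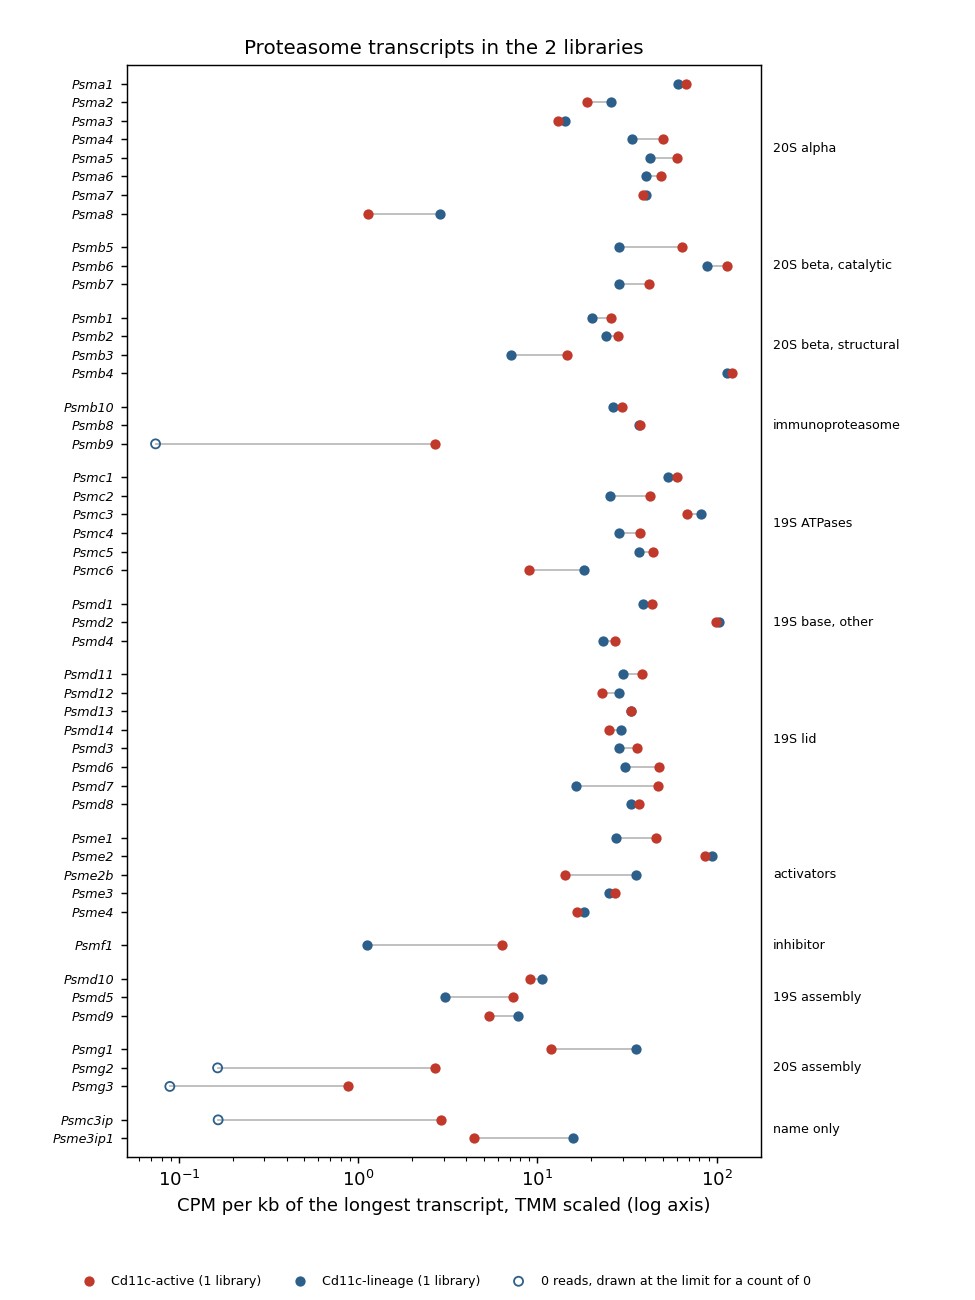
Level of each of the 49 genes (rows, by group) in CPM per kb of the longest transcript (x axis, log scale), with 1 library per colour. Open circles stand for 0 reads and are drawn at the limit of 3 reads, and most genes have both points close together, with *Psmb9*, *Psmg2*, *Psmg3* and *Psmc3ip* at 0 in Cd11c-lineage.

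In the 19S cap, the ATPases that unfold substrates had a summed ratio of 0.15 (widened -0.31 to 0.61). *Psmc3* had the most reads, 1536 and 2095, and a ratio of -0.26 (widened -1.20 to 0.64). *Psmc2* had 1810 and 1239 reads and the highest ratio, 0.73 (counting 0.63 to 0.84, widened -0.20 to 1.85). *Psmc6* had 246 and 570 reads and the lowest, -1.02 (counting -1.25 to -0.81, widened -3.62 to 1.10). *Psmc2* and *Psmc6*, whose products sit in the same ring, thus lay on opposite sides of 0, while *Psmc1*, *Psmc4* and *Psmc5* were between 0.17 and 0.39.

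The non-ATPase subunits of the base include its large scaffolds. *Psmd2* had the most reads of all 47, 3660 and 4315, or 296 and 307 CPM, and a ratio of -0.05 (counting -0.11 to 0.01, widened -0.64 to 0.55). *Psmd1*, the other scaffold, showed 1668 and 1697 reads at a log2 ratio of 0.16 (widened -0.76 to 1.13). *Psmd4*, which encodes a ubiquitin receptor, showed 709 and 695 reads at a log2 ratio of 0.22 (widened -1.32 to 1.69). All 3 lay close to the 0.03 of the typical protein-coding gene.

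In the lid, *Psmd7* (ENSMUSG00000039067) had the highest ratio. It encodes the partner of the deubiquitinase made by *Psmd14*, with which it forms a heterodimer, and counted 921 reads in Cd11c-active against 366 in Cd11c-lineage (74.6 and 26.0 CPM). Its ratio was 1.52 (counting 1.34 to 1.70, widened -0.32 to 3.20) and stayed past the fold under the 5 scaling, trend and added-read alternatives, lowest at 1.31 after trend removal. *Psmd14* itself showed 476 and 633 reads at a log2 ratio of -0.22 (widened -2.03 to 1.49). *Psmd11*, the lid gene with most reads (1400 and 1256), was at 0.34 (widened -0.80 to 1.35), and *Psmd12* was lowest with 550 and 786 reads, at -0.33 (widened -1.96 to 1.21). *Psmd3*, *Psmd6*, *Psmd8* and *Psmd13* lay between 0.0037 and 0.62. The 17 genes of the cap summed to 19607 and 19939 reads, a ratio of 0.16 (widened -0.10 to 0.42) with a median of 0.17. The sum was 0.0260 with library totals and 0.0395 after trend removal, where the median was -0.0176.

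Activators open the gate of the core without ubiquitin. *Psme1* and *Psme2* encode the alpha and beta chains of PA28, a mixed ring induced by interferon, yet they had ratios of opposite sign. *Psme1* had 1128 and 761 reads, or 91.4 and 54.2 CPM, a ratio of 0.75 (counting 0.62 to 0.89, widened -0.49 to 2.21). *Psme2* had 1017 and 1271 reads, or 82.4 and 90.5 CPM, a ratio of -0.13 (counting -0.26 to -0.01, widened -1.29 to 1.04). *Psme1* gave 52.6% of the reads of this pair in Cd11c-active and 37.5% in Cd11c-lineage, a difference of 0.89 in log2 odds (counting 0.71 to 1.07, widened -0.86 to 2.76). After trend removal *Psme1* was at 0.46 and *Psme2* at -0.53, and with library totals *Psme2* was at -0.27. The difference was larger than counting error, and its widened interval included 0.

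*Psme2b*, a copy of *Psme2*, had 148 and 418 reads and was past the fold on the lower side at -1.31 (widened -4.53 to 1.48). Reads of such close copies can be split or lost by counting, so the *Psme2* and *Psme2b* values are uncertain. *Psme2b* also shares exonic sequence with *9930111J21Rik1* on the same strand. *Psme3*, the nuclear PA28 gamma, showed 892 and 939 reads at a log2 ratio of 0.11 (widened -1.26 to 1.37). *Psme4*, which encodes the activator PA200, showed 1333 and 1665 reads at a log2 ratio of -0.13 (widened -1.13 to 0.87), which was -0.27 with library totals and 0.05 after trend removal. The 5 activators together had 4518 and 5054 reads, a ratio of 0.02 (widened -0.53 to 0.56) with a median of -0.13. The direction turned with the scaling: the sum was -0.11 with library totals and -0.11 after trend removal, where the median was 0.0258.

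*Psmf1* (ENSMUSG00000032869), which encodes PI31, known as an inhibitor of the core in vitro, had the highest ratio among members with reads in both libraries. It counted 297 reads in Cd11c-active against 60 in Cd11c-lineage (24.1 and 4.27 CPM), a ratio of 2.48 (counting 2.09 to 2.92, widened -1.15 to 7.81). At 357 reads it fell in the range where 60.8% of protein-coding genes were past the fold.

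Assembly factors, chaperones that help build the particle and leave it afterwards, had few reads and went in both directions. *Psmg1*, a chaperone of the alpha ring, had 154 and 523 reads, or 12.5 and 37.2 CPM, a ratio of -1.57 (counting -1.85 to -1.32, widened -4.92 to 0.77). Its partner *Psmg2* had 43 and 0 reads, at least 16.3-fold higher in Cd11c-active with 3 reads as the floor per library (counting interval from 12.7-fold), with a widened interval from -5.10 on the log2 scale upward without an end. *Psmg3* had 26 and 0 reads, at least 9.86-fold higher on that floor (from 7.47-fold). The widened interval of *Psmg3* had no end on either side, and those of *Psmg1* and *Psmg2*, whose products work as a dimer, overlapped.

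Of the chaperones of the 19S base, *Psmd5* showed 394 and 188 reads at a log2 ratio of 1.25 (widened -1.10 to 4.90). *Psmd9* showed 174 and 290 reads at a log2 ratio of -0.55 (widened -4.28 to 1.99). *Psmd10*, which encodes gankyrin, showed 161 and 214 reads at a log2 ratio of -0.22 (widened -3.98 to 2.73). The 6 listed assembly factors summed to 952 and 1215 reads, a ratio of -0.17 (widened -1.36 to 1.06), which was -0.30 with library totals or after trend removal and turned to 0.39 (widened -1.11 to 1.81) without *Psmg1*. Their median was 0.51, and -0.16 over those with at least 500 reads. Of the name matches outside the proteasome, *Psmc3ip* had 46 and 0 reads, at least 17.4-fold higher on the same floor (from 13.6-fold), and *Psme3ip1* 156 and 640 reads, a ratio of -1.85 (widened -5.09 to 0.51).

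**Figure D4:**
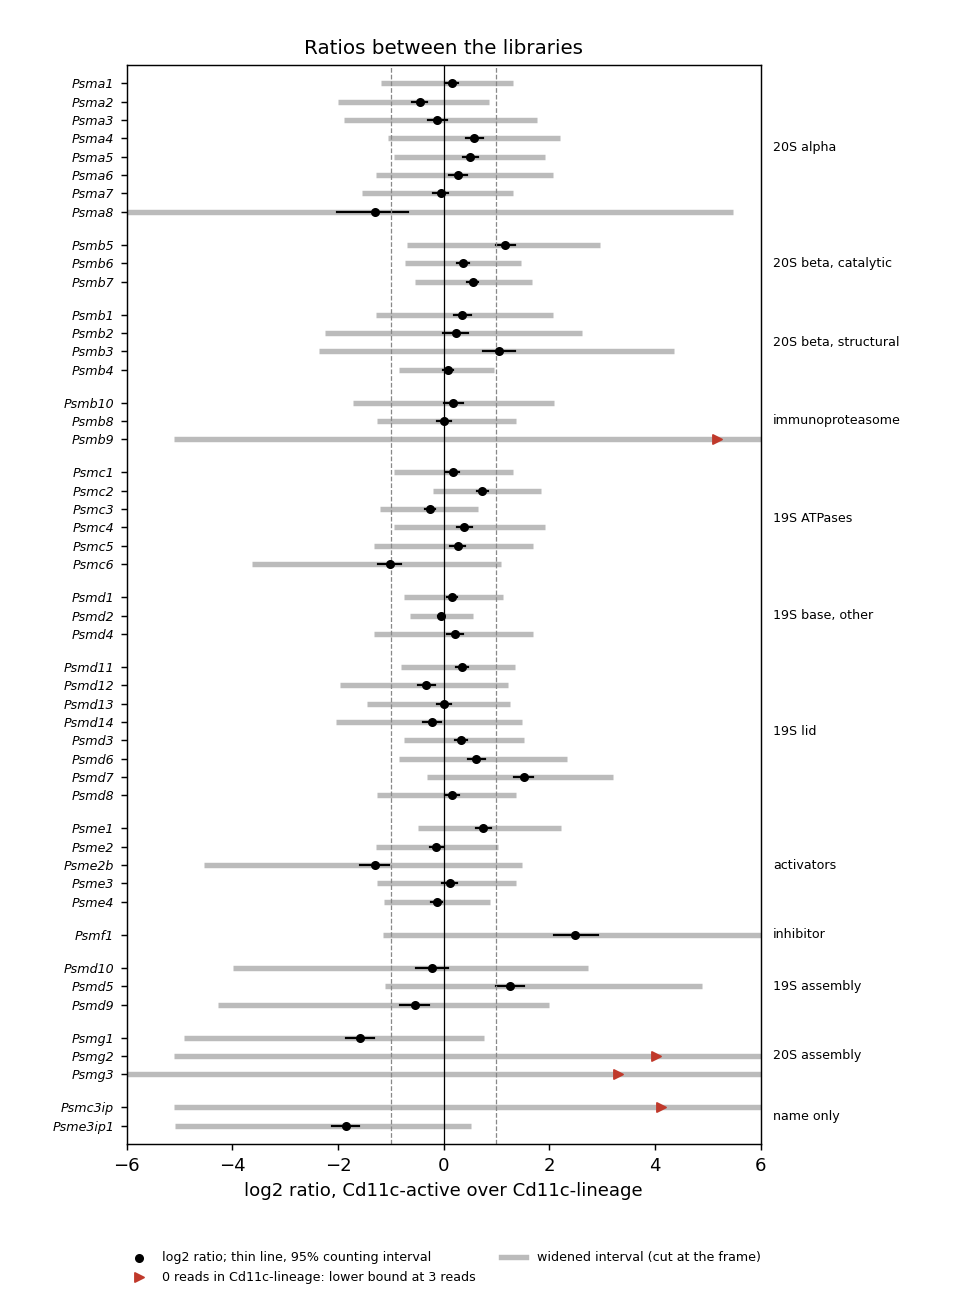
Log2 ratio of Cd11c-active over Cd11c-lineage (x axis) for each gene (rows, by group), with thin lines for 95% counting intervals, grey bands for widened intervals and dashed lines at the fold of 1 in either direction. Arrowheads mark the lower bound of genes with 0 reads in Cd11c-lineage, and the grey band of every gene crosses 0.

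Genes that work with the proteasome but carry other names were read from lists beside the members. Of 14 listed accessory genes, with a median log2 ratio of 0.13, 3 were past the fold, higher in Cd11c-active, and 0 lower, against 39.9% of protein-coding genes in either direction. With library totals or after trend removal 1 of the 3 was under the fold. Among the 3 were the ubiquitin shuttles *Ubqln2* (316 and 139 reads, 1.37, widened -1.62 to 4.65) and *Ubqln4* (498 and 125 reads, 2.18, widened -0.71 to 5.11). In their ranges of reads 60.8% and 33.3% of protein-coding genes were past the fold. The ubiquitin receptor *Adrm1* showed 436 and 657 reads at a log2 ratio of -0.40 (widened -2.45 to 1.30). *Pomp*, the maturation factor of the core, showed 1124 and 1219 reads at a log2 ratio of 0.07 (widened -1.07 to 1.24). The small cap subunit *Sem1* showed 146 and 228 reads at a log2 ratio of -0.45 (widened -3.98 to 2.73).

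The 6 genes for ubiquitin and its activating enzymes had 0 past the fold, with 5 above 0 and a median of 0.50 (0.34 after trend removal). Past the fold were 5.88% of protein-coding genes with 2000 to 3999 reads and 1.93% above that, the ranges of 4 of the 6. The summed reads of the 6 genes were 14859 and 10870, a ratio of 0.64 (counting 0.60 to 0.67, widened 0.30 to 0.96) whose intervals did not include 0. That sum was not computed after trend removal, which took *Ubb*, with most reads, from 0.54 to 0.23. *Uba1*, the main ubiquitin-activating enzyme, showed 4095 and 2449 reads at a log2 ratio of 0.93, with a widened interval from 0.23 upward. Of the 5 genes of the p97 unfoldase (median 0.0047) 0 were past the fold, against 39.9% of protein-coding genes, 33.3% in the range of 1 of them and 17.3% in that of 2, and *Vcp*, p97 itself, showed 10307 and 10446 reads at a log2 ratio of 0.17 (widened -0.19 to 0.54).

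Of 6 genes that control transcription of proteasome genes (median -0.28), 1 was past the fold, against 39.9% of all protein-coding genes and 33.3% of those with 500 to 999 reads: *Ngly1*, an enzyme needed to activate NRF1, with 616 and 202 reads at a log2 ratio of 1.79 (widened -0.46 to 4.15). *Nfe2l1*, which encodes NRF1, showed 2027 and 2578 reads at a log2 ratio of -0.16 (widened -0.99 to 0.63). *Nfe2l2*, which encodes NRF2, showed 1531 and 2705 reads at a log2 ratio of -0.63 (widened -1.55 to 0.20). The 10 genes of interferon control and peptide presentation had a median of 0.30 (0.11 after trend removal) and summed to 37694 and 32354 reads, a ratio of 0.41 (widened 0.21 to 0.60). That sum was not computed after trend removal, so whether its widened interval would still leave out 0 is not known. Trend removal took *H2-D1*, with most reads, from 0.34 to 0.07 and *B2m* from 0.66 to 0.41, while *Erap1* went from -0.04 to 0.14. Among the 10 genes *Tap1* and *Tap2* (864 and 425 reads, 1.21) were past the fold on the higher side and *Nlrc5*, an activator of MHC class I genes (53 and 232 reads, -1.93), on the lower. *Tap1* was under the fold at 0.89 after trend removal, and scaling to library totals, which takes 0.14 from every ratio, also put it under. In the range of reads of *Tap1* 5.88% of protein-coding genes were past the fold, in that of *Tap2* 17.3% and in that of *Nlrc5* 60.8%. *Irf1*, a transcription factor that induces immunoproteasome genes, showed 1481 and 2015 reads at a log2 ratio of -0.26 (widened -1.25 to 0.64).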

How the data were processed

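The 2 sorted populations of retinal microglia were profiled by stranded, ribosomal RNA-depleted RNA sequencing, 1 library each, per the labels' protocols. The authors deposited raw read counts per gene, without normalization, per the file headers, and a log2 fold change and log2 average CPM, which were not used. The submitters' processing notes name cutadapt 3.5, STAR 2.7.9a, featureCounts 1.6.3, edgeR 4.0.16 and GRCm39. Their settings, the annotation and the use of strand in counting are not given in the sources used here. No gene was listed with fewer than 6 reads in total, a filter made before deposit.

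edgeR 4.0.16 (R 4.3.3) gave TMM factors of 0.954 and 1.05 for Cd11c-active and Cd11c-lineage. With 1 library per group no residual degrees of freedom remain, so neither edgeR's quasi-likelihood test nor DESeq2 was fitted, and values are described by a rule of size. Intervals of ratios and shares were exact Clopper-Pearson 95% intervals, and those of differences in log2 odds were 95% intervals of the conditional odds ratio. The overdispersion of 80.2 divided the squared robust SD of log2 ratios by the variance expected from counting, in genes with 800 to 1599 reads and at least 1 in each library. It takes the typical gene as equal, so a difference spread over most genes would count as error. Without molecular identifiers, reads may be copies of a single molecule, which intervals do not cover. The procedure was tested on simulated data. Transcript lengths and GC content came from GENCODE vM21 for GRCm38 and matched 13499 genes (99.6%). The trend came from the 4605 genes reaching 1000 reads. Python 3.11.15 with numpy 2.4.6, scipy 1.17.1 and pandas 2.3.3 was used, with figures by matplotlib 3.10.9.

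Full values are given by rule for catalytic subunits, activators, the inhibitor, members past the fold or at 0 reads, and the extremes and most abundant member of each other group. Accessory genes named by the rule were those past the fold, of which 1 is not reported here, and *Adrm1*, *Sem1*, *Pomp*, *Nfe2l1*, *Nfe2l2* and *Irf1*. *Uba1*, *Vcp* and *Psmd14* were added after their values were seen. Members and lists were chosen with earlier results of these data known. No column of unmapped samples was present (0).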

Additional observations from a re-analysis of the deposited data

How the results depend on the processing

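No paired analysis was possible because each group had 1 library, and for the same reason no replicate could be left out. Of 47 members 8 were past the fold on the higher side, 3 with a minimum of 500 reads (lower, 4 and 3) and 14 at a log2 ratio of 0.5 (lower, 5). With library totals *Psmb3*, and after removal of the trend with length and GC content *Psmb3* and *Psmb5*, dropped under the fold; no other member's call and no called direction differed under the scaling, trend and added-read alternatives. Removing the trend gave a median of -0.00415 over all members and -0.21 over the immunoproteasome. With library totals the summed log2 ratios were 0.0389 (all members), 0.13 (20S core), 0.0285 (immunoproteasome), 0.0260 (19S cap), -0.11 (activators) and -0.30 (assembly factors). After trend removal they were, in the same order, 0.0174, 0.0460, -0.11, 0.0395, -0.11 and -0.30. Without the member with most reads they were 0.20 over all, 0.44 in the immunoproteasome, 0.22 in the cap, 0.10 in the activators and 0.39 in the assembly factors. The share over the 3 catalytic pairs (29.1% and 35.3%) differed from that of each single pair. With the median transcript as length the SD of the log2 level in the 19S cap was 1.10 in Cd11c-active and 1.16 in Cd11c-lineage. Alternatives with the longest coding transcript and with the overdispersion of each gene's own range of reads (again 0 members with a widened interval off 0) were chosen after seeing the data. The cause of these shifts was not tested. With 100 to 499 reads 60.8% of protein-coding genes were past the fold, and with 1000 to 1999 reads still 17.3%, which limits what a fold of 1 shows at these depths.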
